A study of Arabidopsis thaliana with 24 samples.

Results

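Of all genes counted in Arabidopsis shoots, 52 are described, chosen because their RNA was lower after 1, 2 and 3 h of osmotic shock than in water. The rule kept genes with a mean of at least 10 CPM (counts as a share of the library total, scaled to 1e6) in shoot water. It then asked that the log2 of PEG over water, taken on mean CPM + 1, be -1 or less at each of the 3 times. Of the 14557 genes counted, 5693 passed the level and 52 of these met all 3 limits, 0.913% of the genes at that level. The genes were thus chosen by their shoot PEG and shoot water values, so in shoot they are given as a description with no test, and what is tested below is the same genes in root.

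The seedlings, of a line the labels name ulox without defining it, were 7 d old and had grown at 21 °C in days of 16 h light and 8 h dark, on medium with 1% sucrose. They stood for 1, 2 or 3 h in 30% polyethylene glycol of average molecular weight 8000 (PEG, an agent that withholds water, here at -2.0 MPa), or for 1 h in water by the source names, which the titles code as 0 h. Shoots and roots were parted afterwards, and each of the 3 biological replicates (A, B and C) of the 8 groups held 30 to 50 seedlings. RNA was counted by MARS-seq, which reads the 3′ ends of transcripts. All groups are ulox, with no wild type and no seedlings left on their medium analysed here. The 3 PEG times share their water libraries, and by the source names 2 h and 3 h of PEG meant a longer stay in liquid than water at 1 h. Clock times of harvest were not used.

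Library totals ran from 1203312 to 6090852 counts in shoot and from 1597302 to 7029587 in root. The tissue labels were checked on marker genes: 19 photosynthesis genes took 17.3 to 21.4% of the counts in shoot libraries and 0.0933 to 0.221% in root libraries, while 14 root genes took 0.0051 to 0.0158% in shoot and 0.129 to 0.211% in root. The shoot share of root genes was highest in replicate A of shoot water. The same library also stood apart for some of the 52 genes, as given below, and a link to its share of root genes was not tested. In bulk tissue, fewer cells of a type and less RNA per cell cannot be told apart.

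As background, a plant shoot put into an osmotic solution loses water and turgor, and cell expansion slows. Many of the 52 genes are known in Arabidopsis from the fast and brief rise of RNA that follows touch, wounding or a microbial signal: the touch gene TCH4, calmodulin-like CML37, WRKY40, the ethylene response factors ERF104 and ERF105 (AT5G51190), and the zinc finger gene SZF1. Others build or loosen the wall of growing cells, and PYL4 and PYL6 encode receptors of abscisic acid, the hormone of water deficit.

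Promoters are shown for 4 of the genes, since their shoot or root values carry much of what follows and since they differ in which of the searched motifs they hold. Each is the 250 bases before the annotated start, read 5′ to 3′ on the plus strand of RefSeq's TAIR10.1 assembly, with CGCGT (the core bound by calmodulin-binding CAMTA factors) and TTGACT (a W box, bound by WRKY factors) in capitals on either strand. They lie at chr4:5739969-5740218 for EXO, chr1:12851733-12851982 for PHI-1, chr4:12686209-12686458 for DIC2 and chr4:14579313-14579562 for AT4G29780.
EXO: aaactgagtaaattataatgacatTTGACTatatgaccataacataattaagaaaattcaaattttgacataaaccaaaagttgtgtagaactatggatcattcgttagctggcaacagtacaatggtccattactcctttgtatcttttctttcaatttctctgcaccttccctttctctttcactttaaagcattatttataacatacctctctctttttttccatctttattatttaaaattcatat
PHI-1: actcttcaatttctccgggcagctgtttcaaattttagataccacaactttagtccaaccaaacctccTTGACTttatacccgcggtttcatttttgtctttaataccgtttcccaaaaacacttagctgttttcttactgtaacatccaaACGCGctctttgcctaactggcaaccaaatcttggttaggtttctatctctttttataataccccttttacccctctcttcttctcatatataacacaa
DIC2: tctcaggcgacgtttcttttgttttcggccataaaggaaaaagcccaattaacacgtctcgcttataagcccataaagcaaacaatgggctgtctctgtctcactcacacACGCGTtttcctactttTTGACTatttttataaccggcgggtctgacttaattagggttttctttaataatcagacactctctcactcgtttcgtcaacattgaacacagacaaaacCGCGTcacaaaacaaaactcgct
AT4G29780: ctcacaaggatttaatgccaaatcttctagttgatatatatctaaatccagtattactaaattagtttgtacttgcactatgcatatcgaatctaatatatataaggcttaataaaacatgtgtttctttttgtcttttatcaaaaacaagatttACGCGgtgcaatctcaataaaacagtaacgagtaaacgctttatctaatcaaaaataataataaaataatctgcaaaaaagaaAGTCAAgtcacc
EXO and PHI-1 encode related growth proteins of the cell surface, and the PHI-1 window holds a CGCGT that the EXO window lacks. DIC2 and AT4G29780 hold both motifs.

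Motifs were searched on both strands from 250 bases before to 50 bases after the start of 51 of the 52 genes, and the same was done for 5626 protein-coding genes at the same shoot level and for 27442 promoters in all. TTGACT was in 17 of 51 promoters (33.3%), beside 20.6% of the genes at that level and 21.8% of all promoters. CGCGT was in 12 (23.5%), beside 10.9% and 8.70%, and ACGCGT, which contains it, in 4 (7.84%), beside 3.09% and 2.1%. Both CGCGT and TTGACT were in 7 (13.7%), beside 2.79% and 2.03%. These were PHI-1, GPAT3, ZAT7, AT4G29780, AT2G41990, DIC2 and MYB77. The plan listed single motifs only, and this pair joins motifs that were each more frequent here, so nothing is read from it. Of the 7, GPAT3, ZAT7, AT2G41990 and MYB77 did not meet the rule without replicate A of shoot water. ACGTG, the core of the element bound by bZIP factors of the abscisic acid response, was in 9 (17.6%), beside 29.0% and 26.7%. CACGTG, which contains it, was in 0 of 51, beside 9.39% and 7.68%. The other W box form, TTGACC, was in 4 (7.84%), beside 13.9% and 14.2%. TATAAA was in 28 (54.9%), beside 51.9% and 52.1%, and CCGAC in 7 (13.7%), beside 16.6% and 15.0%. The rest were rare in the windows of the 51 genes: GCCGCC was in 2 (3.92%), beside 2.51% and 2.57%, AAACCCTA in 2 (3.92%), beside 5.53% and 6.22%, GGNCCCAC in 1 (1.96%), beside 1.71% and 1.32%, and AAAATATCT in 1 (1.96%), beside 3.52% and 2.82%. A match is only the presence of these letters in the window.

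In water the 52 genes spanned a wide range of levels. Their means ran from 10.1 CPM for TCH4 to 865 CPM for the arabinogalactan protein gene FLA9, with 21 genes at 100 CPM or more and 11 under 20 CPM. Summed, they made up 8063 CPM in water, 2791 after 1 h of PEG, 2624 after 2 h and 1897 after 3 h. The sum was 65.4% lower than in water at 1 h, 67.5% lower at 2 h and 76.5% lower at 3 h. The median log2 change of the 52 was -1.44 at 1 h, -1.54 at 2 h and -1.90 at 3 h, beside -0.09, 0.04 and -0.06 over all 5693 genes at that level. As a ratio of mean CPM, the median gene was 2.75-fold lower at 1 h, 3.05-fold at 2 h and 4.03-fold at 3 h. A log2 change of -1 or less was met by 5.09% of the 5693 genes at 1 h, 1.95% at 2 h and 5.36% at 3 h, so 2 h was the time that kept most genes out. By comparison, 129 of the 5693 genes had a log2 of 1 or more at all 3 times.

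The time at which a gene stood lowest was 3 h for 36 of the 52, 2 h for 8 and 1 h for 8, and 24 genes stepped down at every time. Between 1 h and 3 h the log2 change moved down by at least 0.5 in 18 genes, up by at least 0.5 in 2 and by less in 32. The like shares over the 5693 genes were not counted, so no trait of the 52 is read from these counts by time. All 9 PEG libraries lay below all 3 water libraries for 44 of the 52 genes, where 4.85% of the 5693 genes had such a gap. Nothing is read from that count, as the rule used these libraries. The fit of all shoot genes (edgeR's quasi-likelihood test, Benjamini-Hochberg adjusted p under 0.05) called 46, 45 and 47 of the 52 lower at 1, 2 and 3 h, beside 5.16%, 3.41% and 6.7% of 9207 genes tested, and this too restates the choice.

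**Figure D1:**
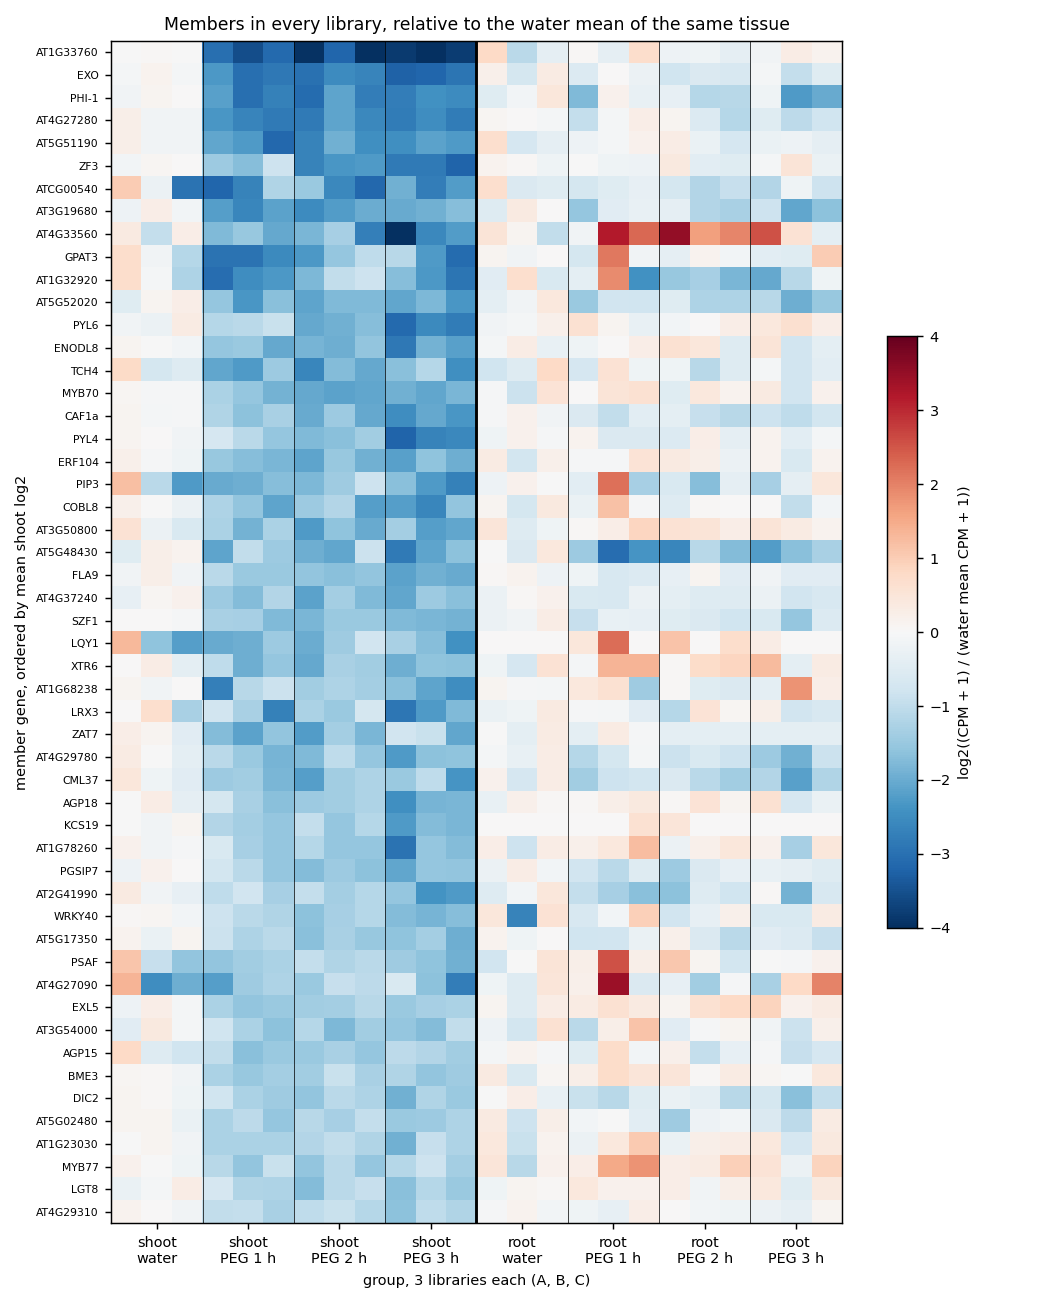
Each row is 1 of the 52 genes, ordered by its mean shoot change, and each column 1 library; colour gives log2 of (CPM + 1) over (water mean CPM + 1) of the same tissue. The shoot PEG columns are blue in nearly every row, as the rule requires, while the root columns are pale with a few rows of either colour, and replicate A of shoot water and replicate B of root PEG 1 h hold isolated red cells.

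The regulators of transcription and RNA formed the largest group by role, 14 genes. Roles were given after the values were seen, and their shares over the 5693 genes were not counted. In all 14 the PEG libraries lay below the water libraries, beside 4.85% of the 5693 genes. The rule favours such gaps, so nothing is read from them here or in the groups below. The median log2 change of the 14 was -1.44 at 1 h, -1.78 at 2 h and -1.92 at 3 h. The steepest of all 52 was AT1G33760, an AP2/ERF factor. It stood at 59.3, 61.4 and 58.9 CPM in water, 6.54, 4.19 and 6.11 CPM after 1 h, 2.96, 5.77 and 2.69 CPM after 2 h and 3.32, 2.34 and 3.37 CPM after 3 h. The 3 water libraries were close together with every PEG library far below them, and the log2 change was -3.20, -3.66 and -3.92 in order of time. ERF105, an ethylene response factor, had 19.5 to 47.5 CPM over its 9 PEG libraries, against 216, 165 and 164 CPM in water. Its sister ERF104 had 41.6 to 66.5 CPM in PEG, against 221, 184 and 168 CPM in water. Both were about as low at 1 h as later, with log2 changes of -2.43, -2.31 and -2.28 for ERF105 and -1.67, -1.82 and -1.88 for ERF104.

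The zinc finger genes differed among themselves in timing. ZF3, a C2H2 factor, stood at 126, 144 and 138 CPM in water, 48.4, 41.2 and 75.1 CPM after 1 h, 20.4, 26.5 and 27.2 CPM after 2 h and 18.3, 18.4 and 13.7 CPM after 3 h. Its groups formed steps with no overlap from 1 h on to 3 h, and its log2 change was -1.29 at 1 h, -2.41 at 2 h and -2.94 at 3 h. ZAT7, another C2H2 factor, had its smallest change at 3 h, with -1.80 at 1 h, -1.76 at 2 h and -1.14 at 3 h. ZAT7 rested on 8, 18 and 8 counts after 3 h, against 9, 9 and 11 counts after 1 h. Its levels were low, at 6.65, 6.02 and 2.07 CPM after 3 h, against 14.6, 13.0 and 8.59 CPM in water. SZF1, a CCCH zinc finger gene, had some of the tightest replicates: 256, 258 and 245 CPM in water, 103, 99.9 and 73.6 CPM after 1 h, 70.6, 90.6 and 89.4 CPM after 2 h and 73.1, 70.2 and 67.4 CPM after 3 h. Most of its difference was there at 1 h, with log2 changes of -1.44, -1.59 and -1.83. BME3, a GATA factor, likewise held a steady level, with log2 changes of -1.38, -1.17 and -1.39.

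WRKY40, a repressor in leaf defence, had 121, 122 and 108 CPM in water, 64.7, 54.3 and 50.4 CPM after 1 h, 36.4, 45.8 and 52.1 CPM after 2 h and 34.1, 31.8 and 35.5 CPM after 3 h. It was thus just past the limit at 1 h, at -1.04, and lower later, at -1.37 and -1.76. The MYB genes MYB70 and MYB77, of 1 subgroup, both stood lower: MYB70 at 11.5 ± 1.05 CPM after 3 h and 47.2 ± 1.92 CPM in water, MYB77 at 35.2 ± 6.79 CPM after 3 h and 75.7 ± 8.82 CPM in water (SD, n = 3 each). CAF1a, a deadenylase that shortens the tails of mRNA, had 315, 278 and 287 CPM in water, 128, 92.6 and 119 CPM after 1 h, 72.2, 107 and 70.2 CPM after 2 h and 51.5, 69.6 and 57.0 CPM after 3 h. Its log2 change went down at each time, through -1.37 and -1.81 to -2.29.

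Other genes of the same families, from lists written from general knowledge, were set beside them in the shoot fit. Of 39 other AP2/ERF genes tested, 25 were called higher and 1 lower at 1 h, 20 and 5 at 2 h, and 23 and 4 at 3 h, where 7.2%, 7.31% and 10.4% of all 9207 genes were called higher and 5.16%, 3.41% and 6.7% lower. These shares at 1, 2 and 3 h are the background for every list of shoot genes that follows. Of 12 other WRKY genes, 2 were called lower and 1 higher at 1 h, 4 and 0 at 2 h, and 6 and 1 at 3 h. Of 21 other zinc finger and stress factors, 5 were called lower and 7 higher at 1 h, 4 and 4 at 2 h, and 4 and 5 at 3 h. Of the 52, 0 were on the lists for jasmonate, immune receptors, auxin, cytokinin and low oxygen. At 3 h the called higher and lower genes of these lists were 14 and 2 of 24 for jasmonate, 3 and 8 of 34 for immune receptors, 3 and 2 of 21 for auxin, 1 and 0 of 4 for cytokinin and 2 and 6 of 10 for low oxygen.

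The second group, 11 proteins of the wall, the cell surface and growth, held the most abundant of the 52 genes. Its median log2 change was -1.46 at 1 h, -1.55 at 2 h and -2.03 at 3 h, and 10 of the 11 had no overlap between PEG and water. EXO (EXORDIUM, which promotes growth downstream of brassinosteroids) stood at 475, 560.0 and 483 CPM in water, 102, 62.0 and 68.7 CPM after 1 h, 63.7, 87.2 and 81.0 CPM after 2 h and 52.4, 55.8 and 65.6 CPM after 3 h. The lowest water library was more than 4 times the highest PEG library, and the log2 change was -2.69, -2.70 and -3.11. PHI-1, its relative, had 303, 360.3 and 342 CPM in water, 73.2, 40.8 and 50.7 CPM after 1 h, 38.7, 76.7 and 48.7 CPM after 2 h and 48.2, 61.5 and 58.1 CPM after 3 h. For PHI-1 the 3 PEG times overlapped, at -2.59, -2.59 and -2.56. EXL5, also of this family, was lower by less, with 80.3 ± 6.49 CPM after 3 h and 207 ± 34.7 CPM in water and log2 changes of -1.44, -1.28 and -1.36.

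FLA9 had 788, 1024 and 784 CPM in water, 405, 307 and 307 CPM after 1 h, 288, 269 and 291 CPM after 2 h and 194, 228 and 213 CPM after 3 h. It stepped down at every time, from -1.35 through -1.61 to -2.03. AGP18, another arabinogalactan protein gene, had 89.4 ± 19.8 CPM after 3 h and 365 ± 81.0 CPM in water. LRX3, which encodes an extensin with leucine-rich repeats that ties wall to membrane, was the exception of the group. It had 789, 1249 and 320.1 CPM in water, 463, 317 and 121 CPM after 1 h, 328, 282 and 479 CPM after 2 h and 106, 164 and 232 CPM after 3 h. Water replicate C lay inside the range of the 1 h and 2 h libraries, and only the 3 h libraries lay below all of water.

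TCH4 and XTR6 encode xyloglucan endotransglucosylases, enzymes that cut and rejoin wall glucans. XTR6 had 34.9, 45.1 and 44.1 CPM after 3 h, against 139, 172 and 105 CPM in water. TCH4, the least abundant of the 52 in water, had 2.49, 4.01 and 1.04 CPM after 3 h, against 17.8, 5.91 and 6.75 CPM in water. Replicate A made up most of its mean in water. ENODL8, COBL8 and AGP15, which encode proteins anchored at or secreted to the surface, completed the group with 3 h changes of -2.25, -2.07 and -1.19. Without water replicate A the change of AGP15 at 3 h was -0.54. Of 40 other cell wall and growth genes tested in the shoot fit, 6 were called lower and 6 higher at 1 h, 8 and 6 at 2 h, and 12 and 6 at 3 h.

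The abscisic acid receptors PYL4 and PYL6 had the steepest course after 1 h. PYL4 stood at 671, 623 and 555 CPM in water, 386, 290.1 and 211 CPM after 1 h, 181, 191 and 236 CPM after 2 h and 66.5, 95.6 and 103 CPM after 3 h. All PEG libraries lay below water and the 3 h libraries below all others, with log2 changes of -1.06, -1.60 and -2.79. PYL6 had 110.2, 104 and 153 CPM in water, 54.9, 56.9 and 65.7 CPM after 1 h, 28.7, 31.9 and 37.0 CPM after 2 h and 13.3, 20.1 and 16.8 CPM after 3 h. Its 4 groups did not overlap at all, and its log2 change of -1.04 at 1 h became -2.80 at 3 h. The moves of -1.76 for PYL6, -1.73 for PYL4 and -1.65 for ZF3 between 1 h and 3 h were the most negative among the 52. At the other end GPAT3, ZAT7 and AT3G19680 moved up by 0.88, 0.65 and 0.42. Of 5 other abscisic acid receptors tested, 0 were called lower at 1 h, 3 at 2 h and 3 at 3 h, and 1 was called higher at each time.

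Both calcium-binding members were low from the first time on. AT4G27280, an EF-hand protein gene, had 520.0, 402 and 401 CPM in water, 87.3, 69.3 and 61.7 CPM after 1 h, 61.6, 101 and 72.2 CPM after 2 h and 63.2, 78.2 and 63.2 CPM after 3 h. The PEG groups overlapped one another and lay far below water, at -2.58, -2.48 and -2.67. CML37 had 1.81 to 6.02 CPM over the PEG libraries, against 18.6, 11.8 and 9.52 CPM in water, with changes of -1.54, -1.56 and -1.52. Of 7 other touch and calmodulin-like genes tested, 0 were called lower at 1 h, 2 at 2 h and 2 at 3 h, and 0 were called higher.

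**Figure D2:**
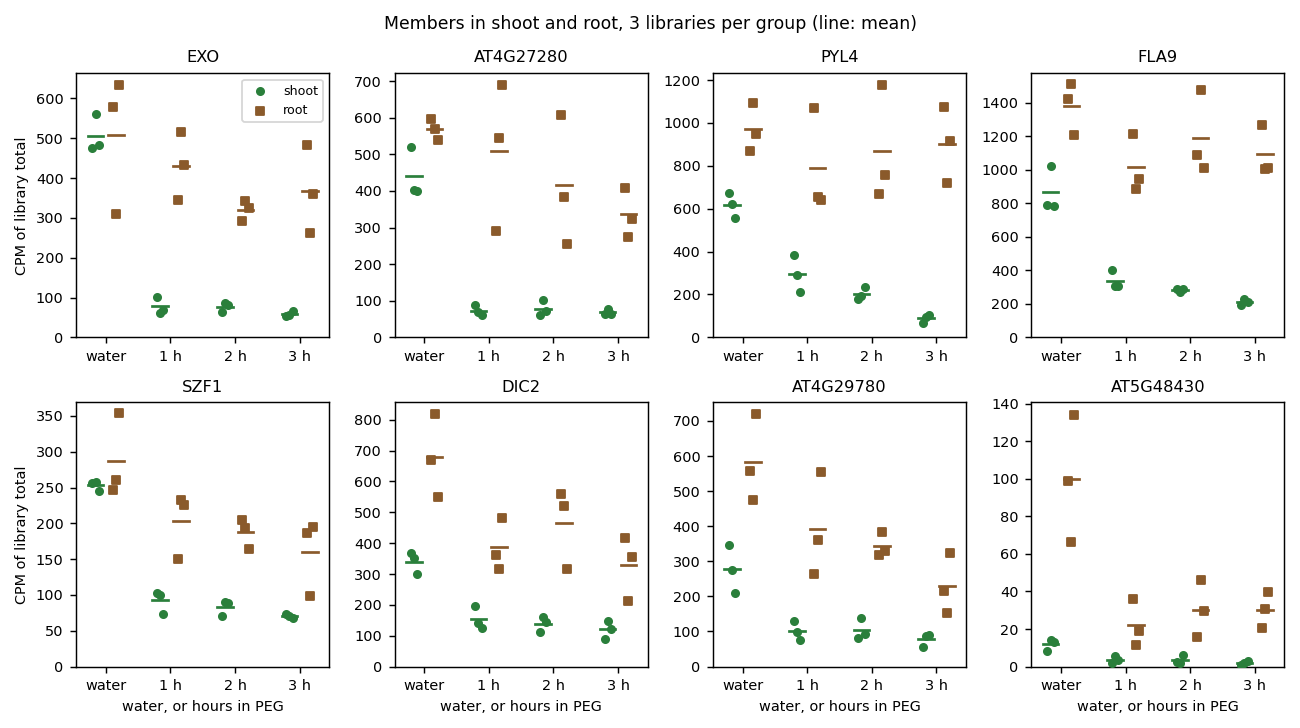
CPM of 8 of the genes in each library, by hours in PEG, with shoot as circles, root as squares and a line at each group mean of 3. In shoot EXO, AT4G27280 and SZF1 are near their lowest level at 1 h and PYL4 steps down to 3 h, while root libraries of PYL4 and FLA9 overlap between PEG and water and those of SZF1 and AT5G48430 do not.

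Among the remaining genes, DIC2, a mitochondrial dicarboxylate carrier, had 367, 353 and 301 CPM in water, 197, 142 and 126 CPM after 1 h, 113, 161 and 145 CPM after 2 h and 89.8, 149 and 122 CPM after 3 h. KCS19, an enzyme that lengthens fatty acids, had 11.9 ± 2.4 CPM after 3 h and 47.8 ± 4.24 CPM in water. AT4G29780, annotated as a nuclease, had 347, 274 and 209 CPM in water, 129.8, 98.6 and 75.4 CPM after 1 h, 80.1, 137 and 93.7 CPM after 2 h and 56.5, 87.3 and 89.4 CPM after 3 h. Both DIC2 and AT4G29780 kept a clear gap between every PEG library and water. AT3G19680 and AT4G29310 share the DUF1005 domain of unknown function, the first among the steepest at -2.30, -2.22 and -1.88, the second the one nearest the limit at -1.07, -1.004 and -1.27. AT4G33560, annotated as wound-responsive, was low throughout, with 0, 2.01 and 2.85 CPM after 3 h, against 22.1, 8.27 and 20.6 CPM in water, where the 0 allows up to 2.49 CPM (3 counts) in the shallowest library of all. The aspartyl protease gene AT5G48430 was also low in shoot, with 0.831, 2.01 and 3.11 CPM after 3 h, against 8.30, 14.2 and 13.2 CPM in water. The 9 genes with other annotated products, among them sugar transferases, a late embryogenesis abundant protein and an HSP20-like chaperone, had median log2 changes of -1.27, -1.41 and -1.72, with no overlap in all 9. The 6 genes with the DUF1005 domain or no described product had medians of -1.40, -1.40 and -1.85, with no overlap in 5.

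Just outside the limit were MYB51, BAP1 and AT1G22882, each with its smallest change at -0.99, while AT4G29310 at -1.004 and AT2G41990 and LGT8, both at -1.02, were just inside. At the floor of 10 CPM, TCH4 at 10.1, AT5G48430 at 11.9 and COBL8 at 11.3 CPM were inside, and F8H at 9.32, AT3G10040 at 9.27 and DAG2 at 7.88 CPM met the 3 limits but were outside.

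For 8 of the 52 genes the PEG and water libraries overlapped: ATCG00540, GPAT3, AT1G32920, PIP3, LQY1, LRX3, PSAF and AT4G27090. PSAF, a subunit of photosystem I, had 110.2 to 219 CPM over the 9 PEG libraries, against 903, 224 and 140.0 CPM in water. LQY1, a chloroplast protein of photosystem II repair, had 5.96 to 20.8 CPM in PEG, against 90.9, 11.2 and 7.06 CPM in water. In both, replicate A of water stood alone, and the other water libraries lay in or next to the range of PEG. The aquaporin gene PIP3 had 10.6 to 41.3 CPM in PEG, against 174, 34.9 and 14.7 CPM in water. AT4G27090, for ribosomal protein L14, had 5.18 to 26.6 CPM in PEG, against 107, 6.50 and 9.82 CPM in water. Here too replicate A alone lay above the PEG libraries. ATCG00540, a chloroplast locus code with no product in the annotation used, had 3.27 to 15.6 CPM in PEG, against 76.7, 31.9 and 3.99 CPM in water. GPAT3, an acyltransferase of glycerolipid synthesis, had 0.518 to 5.38 CPM in PEG, against 20.2, 10.6 and 4.91 CPM in water. AT1G32920 had 4.90 to 26.2 CPM in PEG, against 78.2, 45.5 and 19.6 CPM in water. In these 3 genes replicate C of water lay within the range of PEG and replicates A and B above it.

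Without replicate A the log2 changes at 1, 2 and 3 h were -0.20, 0.14 and -0.43 for PSAF, 0.09, 0.57 and 0.14 for LQY1, -0.34, 0.25 and -0.61 for PIP3, 0.64, 1.06 and 0.78 for AT4G27090 and -0.71, -0.79 and -0.54 for AGP15. These 5 genes missed all 3 limits without that library. In all, 7 of the 52 were at least 2-fold higher in water A than in both B and C: these 5, ATCG00540 and TCH4. Of the 5693 genes, 84 (1.48%) were. The like count over the 5693 genes was 8 for water B and 4 for water C. Without water A, 48 genes met the rule, 38 of the 52 among them, so 14 of the 52 no longer did. The 14 were these 5, PYL4, GPAT3, AT1G32920, TCH4, ZAT7, AT2G41990, AT5G17350, MYB77 and AT4G29310. TCH4 fell under the floor of 10 CPM, with 5.91 and 6.75 CPM in water B and C. ZAT7 and MYB77 missed the limit at 3 h, at -0.996 and -0.998. Leaving out water replicate C moved the count most of the 12 libraries, to 85 genes with 49 of the 52 among them. For PYL4 the loss was slight, at -0.99 at 1 h.

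**Figure D3:**
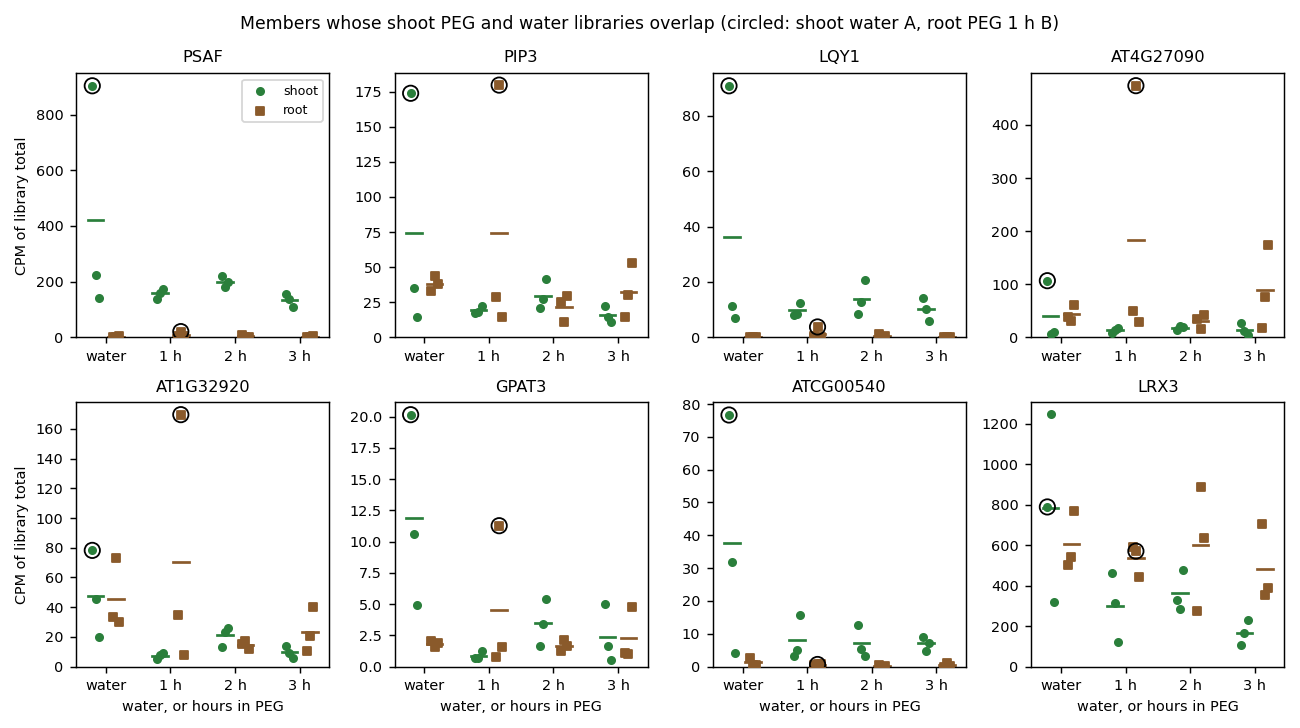
CPM in each library of the 8 genes whose shoot PEG and water libraries overlap, with shoot as circles, root as squares, lines at group means of 3, and rings on replicate A of shoot water and replicate B of root PEG 1 h. The ringed shoot library is the highest shoot library in all but LRX3, from 20.2 CPM for GPAT3 to 903 CPM for PSAF. The ringed root library is the highest root library in all but LRX3 and ATCG00540, on 6 counts for LQY1 and 18 for GPAT3.

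Of these 8 genes, 7 had their highest shoot library in water replicate A, and LRX3 in water replicate B. In root, 6 of the 8 were highest in replicate B of PEG 1 h, while ATCG00540 was highest in a water library and LRX3 in a 2 h library. For LQY1 and GPAT3, too low in root to be tested, this rests on 6 and 18 counts. AT4G27090 had 474 CPM in replicate B of root PEG 1 h, against 15.9 to 174 CPM in the other 11 root libraries. PIP3 had 179.7 CPM in that library, against 11 to 52.7 CPM elsewhere in root, and AT1G32920 had 169.7 CPM, against 7.65 to 73.4 CPM. Of the 46 genes tested in root, 8 (17.4%) had their highest root value in that library, beside 15.1% of all 9751 genes tested.

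Root offered a view of the same genes in libraries the rule had not used. Of the 52, 41 reached 10 CPM in root water and 10 were under 5 CPM; KCS19 and LQY1 had 0 counts in the 3 root water libraries, which allows up to 0.436 CPM (3 counts over the group, counting error only). In 28 genes (53.8%) shoot and root water means (CPM + 1) were within 2-fold of each other, beside 49.5% of the 5693 genes, and 22 were higher in root. After the filter on low counts, 46 of the 52 were tested among 9751 root genes, and AT1G33760, ATCG00540, GPAT3, LQY1, ZAT7 and KCS19 were too low. AT1G33760, the steepest in shoot, had at most 2.65 CPM in any root library.

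Few of the 46 passed the test in root. At 1 h 1 gene was called lower, beside 0.308% of the 9751 genes, and 0 higher (0.164%). At 2 h 0 were called lower (0.0615%) and 0 higher (0.123%), and at 3 h 1 was called lower (0.174%) and 0 higher (0.0513%). The test was edgeR's quasi-likelihood test on 12 root libraries, two-sided, at a Benjamini-Hochberg adjusted p under 0.05 over all 9751 genes. At an unadjusted p under 0.05, 13, 12 and 12 of the 46 were lower at 1, 2 and 3 h, where 5.80%, 3.25% and 3.26% of all tested genes were. At the same threshold 1, 1 and 0 were higher, for which the share over all genes was not counted. Root replicates varied more than shoot replicates, with a biological coefficient of variation (the relative spread between replicates beyond counting noise) of 34.2% in root and 17.2% in shoot.

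AT5G48430 was the gene called at 1 h. In root it stood at 99.0, 66.5 and 134 CPM in water, 35.8, 11.3 and 18.7 CPM after 1 h, 15.5, 45.9 and 29.4 CPM after 2 h and 20.4, 30.4 and 39.9 CPM after 3 h. All 9 PEG libraries lay below all of water, and at 1 h the fitted log2 change was -2.42 (SE 0.44, edgeR adjusted p = 0.0337). At 2 h and 3 h it was -1.91 and -1.88, with edgeR adjusted p = 0.118 and 0.123. The call at 1 h was lost with library totals in place of TMM scaling (adjusted p = 0.0883) and on leaving out any 1 of the 6 libraries compared but PEG replicate A, with adjusted p up to 0.218.

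AT4G29780 was the gene called at 3 h. In root it had 558, 474 and 719.6 CPM in water, 265, 359 and 555 CPM after 1 h, 319, 384 and 329.5 CPM after 2 h and 215, 153 and 324 CPM after 3 h. One 1 h library reached into the range of water, and the 2 h and 3 h libraries lay below it. The fitted log2 change was -0.89, -0.95 and -1.56 in order of time (SE 0.26, 0.26 and 0.27), with edgeR adjusted p = 0.198, 0.254 and 0.0355. The 3 h call was lost with library totals (adjusted p = 0.142) and on leaving out any 1 of the 6 libraries, with adjusted p up to 0.163. DESeq2's Wald test, run on all 14557 genes, called 4, 2 and 7 of the 52 lower at 1, 2 and 3 h, beside 117, 54 and 72 of all genes. AT5G48430 and AT4G29780 were among those called at every time.

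Below the threshold, the 46 leaned to the lower side. The fitted log2 change in root was negative for 30 at 1 h, 36 at 2 h and 37 at 3 h, beside 42.3%, 44.6% and 41.7% of all 9751 genes. It was negative at all 3 times for 25, positive at all 3 for 6 and mixed for 15. The like shares over all genes were not counted. The median of the 46 was -0.28, -0.43 and -0.43 in order of time, beside 0.13, 0.06 and 0.11 over all 9751 genes. Under library totals the medians of all genes were 0.41, 0.26 and 0.29 and those of the 46 were 0.04, -0.23 and -0.26, so at 1 h the sign of the 46 turned. Without replicate B of root PEG 1 h the 1 h median of the 46 was -0.52. The 3 root comparisons share their water libraries.

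In 8 of the 46 the change was lower at an unadjusted p under 0.05 at all 3 times: AT5G48430, AT4G29780, AT5G52020, CAF1a, CML37, SZF1, AT3G19680 and AT4G37240. The like share over all genes tested in root was not counted, so nothing is read from the 8. AT5G52020, an AP2/ERF factor, had 115, 138 and 202 CPM in root water, 53.3, 88.9 and 86.8 CPM after 1 h, 108, 64.4 and 64.0 CPM after 2 h and 70.0, 38.2 and 52.7 CPM after 3 h. Its PEG libraries all lay below water, with a fitted log2 change of -1.68 at 3 h (SE 0.37, edgeR adjusted p = 0.112). SZF1 had 98.0 to 233 CPM over the 9 root PEG libraries, against 246, 261 and 355 CPM in root water, and at 3 h its fitted log2 change was -1.07 (SE 0.27, edgeR adjusted p = 0.199). CAF1a had 199 to 334 CPM in root PEG, against 417, 491 and 397 CPM in root water, with -1.07 at 3 h (SE 0.34, edgeR adjusted p = 0.336).

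PEG lay below water with no overlap in root for 9 of the 46 at 1 h, 9 at 2 h and 12 at 3 h, beside 4.85%, 3.96% and 3.56% of the 9751 genes. All 9 PEG libraries lay below all 3 water libraries for AT5G52020, CAF1a, AT5G48430, SZF1 and PGSIP7, 5 of 46, beside 1.56%. PGSIP7 encodes a sugar transferase. None of these genes had a p adjusted over all genes under 0.05 at every time.

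The genes lowest in shoot differed among themselves in root. EXO had 484, 261 and 360.3 CPM after 3 h in root, against 578, 309 and 634 CPM in root water, with overlapping libraries and a fitted log2 change of -0.59 (SE 0.26, edgeR adjusted p = 0.612); at 2 h it was -0.82 (SE 0.26, edgeR adjusted p = 0.361). PHI-1 had 165, 37.7 and 45.0 CPM after 3 h in root, against 132, 175 and 254 CPM in root water, with 1 PEG library inside the range of water, at a fitted log2 of -0.77, -0.97 and -1.35 in order of time (3 h SE 0.60, edgeR adjusted p = 0.612). AT4G27280 had 409, 275 and 324 CPM after 3 h in root, against 596, 569.8 and 539.6 CPM in root water, with no overlap (log2 -0.94, SE 0.41, edgeR adjusted p = 0.606). AT3G19680 stood at a fitted log2 of -1.67 at 3 h (SE 0.48, edgeR adjusted p = 0.286) and ERF105 at -0.36 (SE 0.37, edgeR adjusted p = 0.795). PHI-1 and AT3G19680 were thus past -1 in root at 3 h without passing the test. ZF3 had 118, 179.6 and 102 CPM after 3 h in root, against 137, 127 and 109 CPM in root water, a fitted log2 change of -0.00 (SE 0.41). PYL6 had 337, 389 and 304 CPM after 3 h in root, against 228, 237 and 287 CPM in root water, and all 3 PEG libraries lay above water (log2 0.33, SE 0.32, edgeR adjusted p = 0.786). The largest positive values were those of AT4G33560, with 49.8, 12.7 and 16.1 CPM after 2 h, against 5.31, 3.72 and 1.24 CPM in root water (log2 2.74, SE 1.05, edgeR adjusted p = 0.485). Its root libraries spread widely within every PEG group. MYB77 had 39.9, 96.4 and 119.8 CPM after 1 h in root, against 47.5, 14.9 and 37.9 CPM in root water (log2 1.08, SE 0.36, edgeR adjusted p = 0.265).

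The 3 genes with the highest root water means that were called at no time were FLA9, PYL4 and DIC2. FLA9 had 1266, 1004 and 1010.3 CPM after 3 h in root, against 1424, 1511 and 1211 CPM in root water. PYL4 had 1074, 722 and 916 CPM after 3 h in root, against 869, 1091 and 949 CPM in root water. Both overlapped, at a fitted log2 of -0.52 for FLA9 (SE 0.32, edgeR adjusted p = 0.724) and -0.31 for PYL4 (SE 0.33, edgeR adjusted p = 0.798). DIC2 had 418, 212 and 354 CPM after 3 h in root, against 671, 819.9 and 548 CPM in root water, with no overlap (log2 -1.30, SE 0.36, edgeR adjusted p = 0.272). Between 3 h and 1 h of PEG in root, 0 of the 46 were called in either direction (0.0% of all genes). At an unadjusted p under 0.05, 1 was lower, beside 0.636% of all genes, and 0 were higher. The difference between the shoot and root changes was not tested, because the shoot changes chose the genes.

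**Figure D4:**
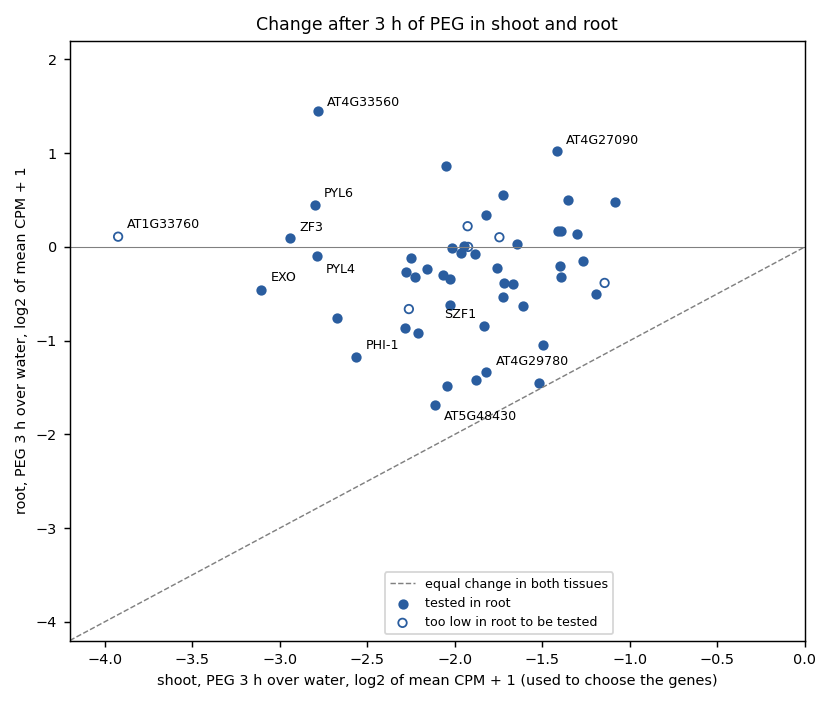
Log2 of mean CPM + 1, 3 h of PEG over water, for the 52 genes, shoot on the horizontal axis and root on the vertical, with filled points for the 46 genes tested in root and a dashed line at equal change. Shoot values end at -1 by the rule; nearly all points lie above the line, and EXO, ZF3, PYL4 and PYL6, among the lowest in shoot, lie within 0.5 of 0 in root.

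Gene structure was a feature the rule did not use. Of the 51 genes annotated as protein-coding in TAIR10.1, 30 (58.8%) have a single exon, beside 817 of 5627 (14.5%) of the genes at the same shoot level. Among the 44 genes with no overlap between PEG and water the count was 28 (63.6%), and among the 37 annotated genes that met the rule without water A it was 24 (64.9%). The median spliced length was 1374 bases, beside 1727 bases. The share was 57 of 129 (44.2%) among the genes with a log2 of 1 or more at all 3 times, and 49 of 124 (39.5%) among genes at -1 or less at 3 h alone. By role, 10 of 14 regulators, 6 of 11 wall and growth genes, both abscisic acid receptors and both calcium-binding genes have 1 exon. So do 2 of 4 genes of membrane transport and lipid synthesis and 4 of 9 with other annotated products. The count was 4 of 6 for genes with DUF1005 or no described product. It was 0 of the 3 annotated genes of photosynthesis and the ribosome (PSAF, LQY1 and AT4G27090).

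**Figure D5:**
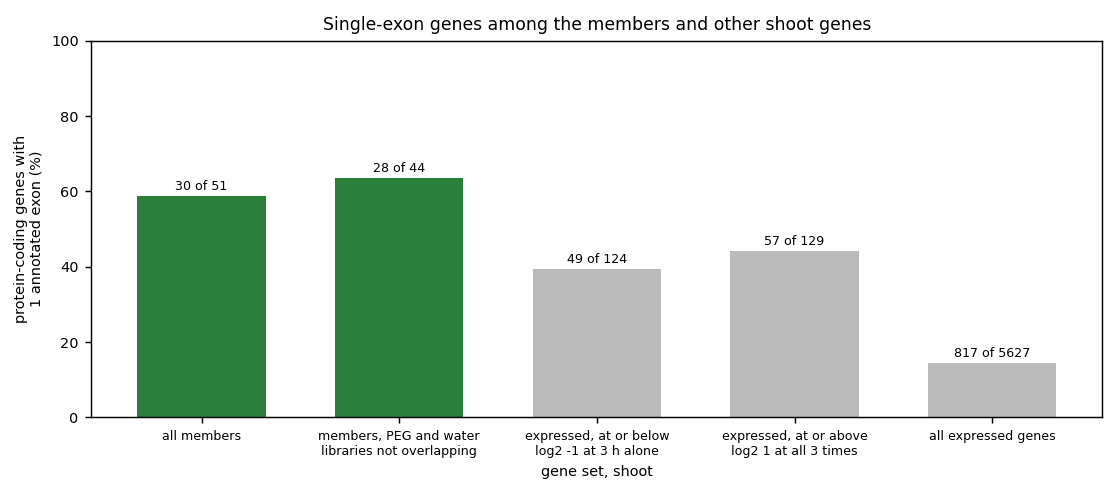
Percentage of annotated protein-coding genes with 1 exon, in all 52 genes, in those with no overlap, in genes at or below -1 at 3 h alone, in genes at or above 1 at all 3 times, and in all genes at that shoot level. The bars stand at 58.8, 63.6, 39.5, 44.2 and 14.5%.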

How the data were processed

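Raw counts per gene for 24 MARS-seq libraries (8 groups of 3) were used as deposited by the authors, and 0 values were not whole numbers. Groups follow the source names; a separate tissue field gives root throughout and was passed over. Per the submitters' processing notes, the tools were STAR 2.4.2a, cutadapt, bcl2fastq, DESeq2 and HTSeq, in an order that is not recorded. Not given in the sources used here: build, annotation, strand and any collapsing of molecular identifiers. The authors' normalized values and comparisons in the same table were not used.

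CPM are counts over library totals. The +1 in the rule understates the change of low genes. In root, genes passing filterByExpr (9751) were fitted with edgeR 4.0.16 (R 4.3.3), TMM scaling and the robust quasi-likelihood test, two-sided, with Benjamini-Hochberg adjustment within each contrast; DESeq2 1.42.0 was an alternative. The fit was tested on simulated data. Root log2 changes come from this fit and levels are CPM of library totals, so the 2 can differ slightly. Replicates of the same group were not duplicates, since all 24 such pairs exceeded counting noise (chi-square per degree of freedom 2.54 to 41.0). Libraries of different groups were not compared in this way. P-values measure the spread between pools of seedlings. Over the 52 genes, shoot water counts summed over 3 libraries ran from 77 to 6281 per gene (median 405).

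Names, exons and promoters come from RefSeq's TAIR10.1, which may differ from the authors' annotation and matched 14457 of 14557 locus codes; the 100 others are organelle codes, ATCG00540 among them. Promoter windows span 250 bases before to 50 after the start.

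The 52 genes, the gene lists, the motifs and the tests were chosen with earlier results of these data known. Genes were named by a fixed rule: the 10 lowest mean changes, the 10 highest water levels, the extremes of change between 1 h and 3 h, those next to the limit, list members, and in root the called genes and the 3 most abundant uncalled ones. Genes at the floor, those grouped by role, those whose libraries overlap, and the other root examples were named after their values were seen. Alternatives were other scalings, pseudocounts, level floors and filters, DESeq2, a joint fit, a replicate block and leaving out each library.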

Additional observations from a re-analysis of the deposited data

How the results depend on the processing

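The rule gave 52 genes, 47 with TMM-scaled CPM (44 of them among the 52), 58 and 36 with pseudocounts of 0.1 and 5, and 66 and 41 with floors of 5 and 20 CPM. Leaving out 1 of the 12 shoot libraries gave 46 to 85 genes, with the 85 (49 of the 52) arising without water replicate C and 48 (38 of the 52) without water replicate A; 29 genes met the rule in all 12. In root, the genes called lower numbered 1, 0 and 1 at 1, 2 and 3 h. DESeq2's Wald test gave 4, 2 and 7, a joint fit of both tissues 5, 1 and 7, and library totals 0, 0 and 0; the cause was not tested. Over all root genes the called lower were 30, 6 and 17, with 117, 54 and 72 by DESeq2 and 122, 47 and 66 in the joint fit. Leaving out 1 of the libraries compared gave 0 to 1 genes at 1 h and 0 at 3 h. At 3 h over 1 h of PEG, 0 were called under every alternative run.

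Among the root libraries, deviations from group means correlated from -0.53 to 0.68 for pairs with the same letter A, B or C (median 0.10, 18 pairs). Pairs with different letters ran from -0.67 to 0.62 (median -0.05, 36 pairs). Whether the letters pair root with shoot libraries was not tested. With the letter as a replicate block 1, 0 and 1 of the genes were called lower, as without it. Counting only the 44 genes with no overlap in shoot, chosen after seeing the data, also gave 1, 0 and 1. Spread between root replicates and 3 libraries per group limit what root can show.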
